A study of Homo sapiens with 6 samples.

Results

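The genes described here are the members of 18 families of DNA-binding transcription factors, named by their symbols: the 4 HOX clusters, the forkhead (FOX), SOX, KLF, ETV and ELF, TEAD, GATA, TBX, PAX, LHX, TCF and STAT genes, the sine oculis relatives (SIX4 and its paralogues), the nuclear receptors with an NR symbol, and the retinoid receptors. All protein-coding genes with such a symbol were taken, except FOXA1, FOXM1 and SOX9, and antisense and divergent transcripts were left out. The deposited count files hold 53 of them among 5187 listed genes, out of 238 in GENCODE release 29. Huh7, the source of the libraries, is a long-established line from a human liver cancer, a hepatocellular carcinoma. There were 3 cultures given GABA (gamma-aminobutyric acid), an inhibitory neurotransmitter that cells outside the nervous system can also make, for 24 h, and 3 control cultures without it, each group labelled as biological replicates 1, 2 and 3. All cultures were of this 1 line, and the labels give no dose. The series concerns GABA as a regulator of gene expression in metastasis of this cancer.

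The prefix rule also takes a few genes that are not factors of the family their symbol recalls. PAXX is a DNA end-joining protein, PAXBP1 is a protein that binds PAX proteins, and TCF19 and TCF25 are unrelated to the Wnt effector TCF7L2 and to the helix-loop-helix factor TCF3. The families were represented unevenly. The files list 5 of 10 HOXB genes, 8 of 18 KLF genes, 3 of 4 TEAD genes and 3 of 7 STAT genes, but 7 of 49 FOX genes and 2 of 18 SOX genes. No HOXC gene, HOXD gene or retinoid receptor of the RAR or RXR kind is listed.

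Members of these families bind short DNA motifs and set which genes a cell transcribes. HOX genes lie in clusters and record position along the body axis. KLF factors bind GC-rich boxes, often as repressors or as rapid responders to growth and stress signals. TEAD proteins carry the coactivators YAP and TAZ of the Hippo pathway, STAT proteins carry cytokine signals from JAK kinases to the nucleus, and nuclear receptors respond to steroids, heme, retinoids and other lipid-soluble ligands. In liver, GATA, forkhead, COUP-TF and STAT factors take part in development, metabolism and the response to growth hormone and interleukin-6.

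Counts summed to between 7719243 and 8392945 in the GABA libraries and between 7702666 and 8235028 in the control libraries, which are sums over the listed genes and not library depths. Levels are given as CPM, counts scaled by TMM to a total of 1000000 on the listed genes. Fold changes set GABA over control as log2 values and carry the standard error (SE) of the edgeR quasi-likelihood fit. The files hold almost only genes that differ in this same comparison. The order of the genes in the files followed the p-values (Spearman correlation 0.93 across 4981 tested genes), and the smallest change among them was 0.12 in absolute log2 value. Passing the threshold is therefore close to a condition of being listed. The Benjamini-Hochberg adjustment covers the tested genes alone and near the threshold hardly changes p. STAT6, for example, had an edgeR p of 0.051 and an adjusted p of 0.052. The adjusted p-values given here therefore do not control false discovery over all genes of the cell. Control replicate 3 stood apart from the other control libraries on the second principal component and held 9.11% mitochondrially encoded counts, against 6.66% to 7.74% in the other 5 libraries. None of 12 hepatocyte markers, 5 immune markers or 4 endothelial markers examined is listed, so the labelled cell type could not be checked here. Markers of other cell types that are listed moved in both directions. The cholangiocyte markers KRT19 (log2 fold change 0.36) and SOX9 (0.94), 2 of 4 on their list, rose and summed to 1991 to 2146 CPM with GABA and 1382 to 1452 CPM in control libraries. Of 6 fibroblast and stellate markers, PDGFRB fell by 0.99 and COL3A1 rose by 0.66, at sums of 48.2 to 54.3 CPM with GABA and 52.4 to 68.4 CPM in control libraries. Of 4 neuron markers, 3 are listed, among which MAP2 fell by 0.94, SNAP25 was at -0.75 (adjusted p = 0.057 and 0.058 without GABA replicate 1 or 2) and SYP rose by 0.79, at sums of 27.6 to 31.5 CPM with GABA and 31.1 to 36.9 CPM in control libraries. Their part in the members' changes was not tested. In bulk RNA, fewer cells that transcribe a gene and less RNA per cell cannot be told apart.

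Of the 53 members, 52 passed the filter on low counts. Of these 52, 20 rose and 31 fell with GABA, and STAT6 did not pass (edgeR, adjusted p below the threshold of 0.05). Among all tested genes 98.7% passed this test, 47.6% higher and 51.2% lower, so the number of members called says little about them. Higher members made up 38.5% of the 52 and lower members 59.6%. Without GABA replicate 1 the count of lower members was 20, and without GABA replicate 2 it was 19. Over all tested genes the lower count also fell, from 2549 with all libraries to 1937 and 1947 in these fits. The count of higher members stayed between 17 and 20 with any library left out. The groups did not overlap in 47 members, 19 with all GABA libraries above and 28 with all below all control libraries, against 92.5% of all tested genes (45.8% above and 46.7% below). The changes were mostly small. Their median absolute log2 fold change was 0.34, against 0.40 over all tested genes, and 2 of 52 reached 1, against 10.3% of all tested genes.

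**Figure D1:**
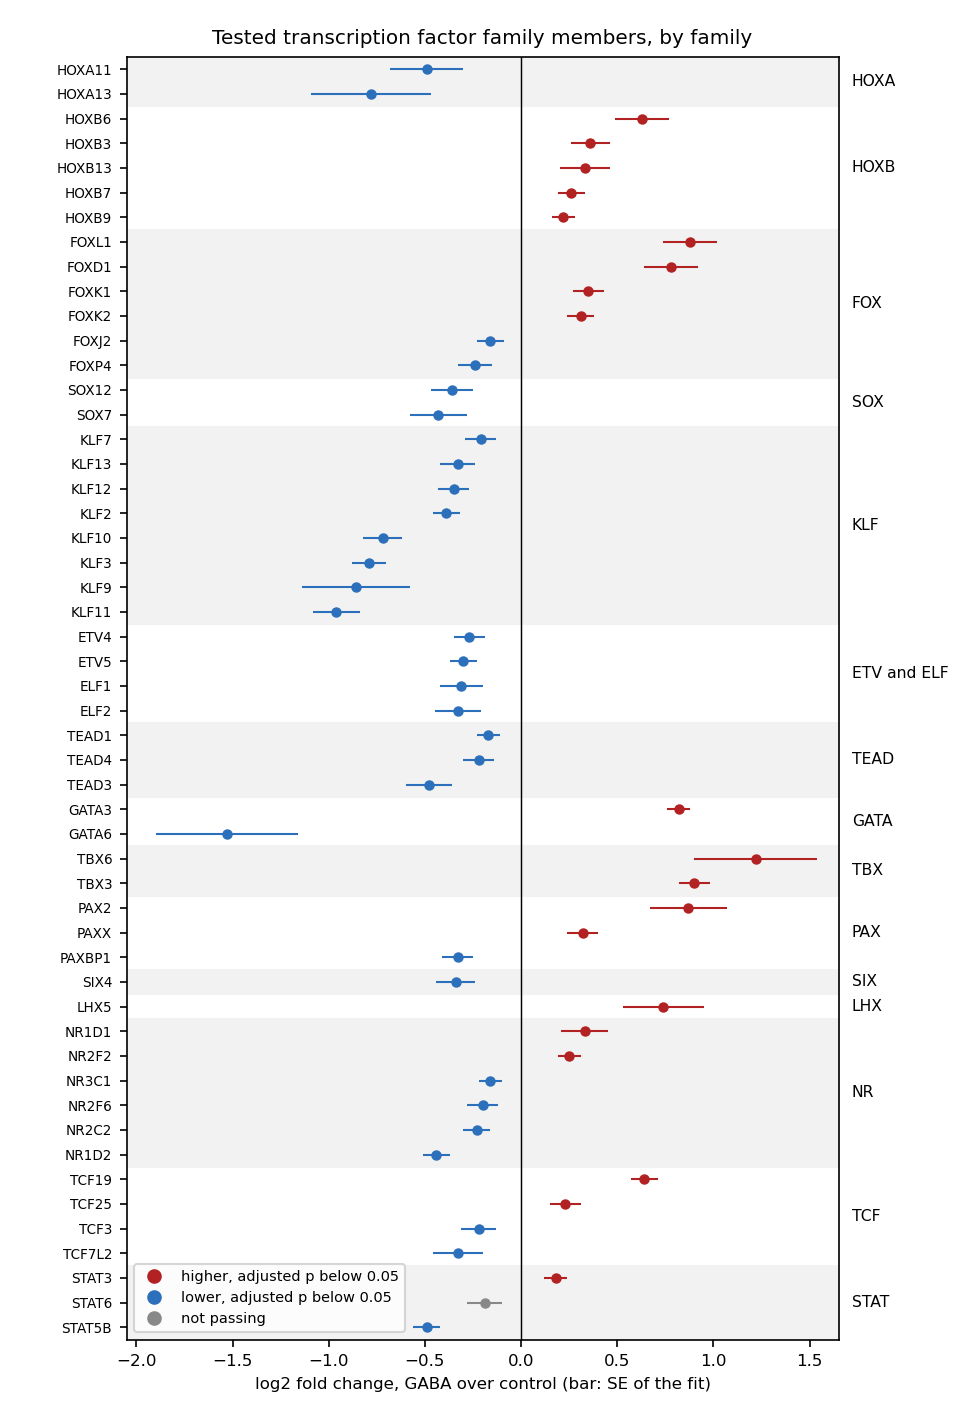
Log2 fold change of GABA over control (horizontal axis) of the 52 tested members, grouped by family, with the SE of the fit as bars; colour shows the call at an adjusted p of 0.05. The 8 KLF genes all lie left of 0 and the 5 HOXB genes all lie right of it, and GATA6 at -1.53 and TBX6 at 1.22 are the extremes.

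The 300-base promoters of 6 members were chosen to show how different in sequence the genes that moved are: GATA3 and FOXD1, which rose, KLF11 and KLF2, which fell, and the paralogues NR1D1 and NR1D2, which moved in opposite directions. They come from RefSeq on GRCh38.p14, run 5′ to 3′ on the gene's strand from 250 bases before to 50 bases after the RefSeq start, and were found for 36 of the 53 members. The RefSeq start is not always that of the listed gene. The KLF11 window lies inside its gene, which starts at 10042849 in GENCODE. Those of ELF1, KLF7, NR2F2, NR3C1, STAT5B and STAT6 also lie inside their genes. The windows of FOXD1, FOXN4, PAX2 and KLF12 lie wholly upstream of their genes. FOXD1, on the minus strand, starts at 73448527 in GENCODE, outside the window printed below. Capitals mark GC boxes (GGGCGG) and CACCC boxes (CCACCC) read on either strand, the motif types that KLF and SP proteins bind; the GC and CACCC letters do not overlap each other here, but GC boxes can overlap GC boxes.
GATA3, chr10:8045083-8045382, plus strand: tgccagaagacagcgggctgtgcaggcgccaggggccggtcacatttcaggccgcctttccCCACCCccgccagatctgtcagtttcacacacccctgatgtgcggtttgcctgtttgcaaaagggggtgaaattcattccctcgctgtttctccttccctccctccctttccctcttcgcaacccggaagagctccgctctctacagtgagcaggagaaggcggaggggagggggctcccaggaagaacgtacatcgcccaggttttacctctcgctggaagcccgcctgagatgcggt
FOXD1, chr5:73448728-73449027, minus strand: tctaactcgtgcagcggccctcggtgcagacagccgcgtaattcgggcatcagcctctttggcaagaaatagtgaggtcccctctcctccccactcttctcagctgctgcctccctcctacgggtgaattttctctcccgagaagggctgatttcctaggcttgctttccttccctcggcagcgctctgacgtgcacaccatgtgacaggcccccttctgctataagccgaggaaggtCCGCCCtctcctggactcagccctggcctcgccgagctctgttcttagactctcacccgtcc
KLF11, chr2:10043579-10043878, plus strand: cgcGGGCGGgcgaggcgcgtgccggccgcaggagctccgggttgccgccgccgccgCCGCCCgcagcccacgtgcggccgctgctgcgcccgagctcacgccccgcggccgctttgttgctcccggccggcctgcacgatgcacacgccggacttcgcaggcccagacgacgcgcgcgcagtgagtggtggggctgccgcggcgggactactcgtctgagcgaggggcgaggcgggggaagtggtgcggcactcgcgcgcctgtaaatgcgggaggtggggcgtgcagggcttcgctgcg
KLF2, chr19:16324576-16324875, plus strand: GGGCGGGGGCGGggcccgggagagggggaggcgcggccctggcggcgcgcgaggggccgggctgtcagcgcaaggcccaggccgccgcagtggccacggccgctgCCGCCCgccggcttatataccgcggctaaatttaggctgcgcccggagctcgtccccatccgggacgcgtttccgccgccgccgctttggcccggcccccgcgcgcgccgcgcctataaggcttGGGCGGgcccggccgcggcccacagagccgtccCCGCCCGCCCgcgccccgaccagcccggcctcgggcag
NR1D1, chr17:40100540-40100839, minus strand: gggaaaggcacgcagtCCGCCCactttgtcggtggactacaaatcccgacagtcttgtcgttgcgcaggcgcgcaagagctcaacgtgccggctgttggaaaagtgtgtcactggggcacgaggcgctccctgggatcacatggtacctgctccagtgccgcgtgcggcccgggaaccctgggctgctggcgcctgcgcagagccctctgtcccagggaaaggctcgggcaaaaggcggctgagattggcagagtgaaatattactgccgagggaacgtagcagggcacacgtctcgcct
NR1D2, chr3:23945036-23945335, plus strand: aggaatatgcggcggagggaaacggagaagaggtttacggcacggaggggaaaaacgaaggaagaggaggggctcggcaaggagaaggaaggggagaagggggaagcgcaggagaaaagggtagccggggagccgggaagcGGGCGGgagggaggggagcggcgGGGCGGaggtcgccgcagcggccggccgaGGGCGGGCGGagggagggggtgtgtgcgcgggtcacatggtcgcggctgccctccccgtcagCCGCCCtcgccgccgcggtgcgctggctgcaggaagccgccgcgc

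Within these windows the KLF2 promoter held 6 GC boxes at 80.7% GC and the KLF11 promoter 2 at 77.3% GC. The GATA3 promoter held none at 60.7% GC and the FOXD1 promoter 1 at 59.7% GC. Other members went the other way. FOXK1 and PAXX, which rose, had 4 GC boxes at 84.3% GC and 6 at 75.7% GC. KLF9 and HOXA11, which fell, had none at 32.7% and 51.3% GC. NR1D2 had 5 GC boxes at 72.3% GC and NR1D1 1 at 63.0% GC. A GC box was present in 26 of the 36 member promoters (72.2%), against 44.6% of 27305 RefSeq promoters of the same length, and a CACCC box in 17 (47.2%), against 33.4%. The members' promoters were also richer in GC, with a median of 67.2% against 58.3%. Of the 6 KLF promoters at hand, 3 held a GC box and 2 a CACCC box. The windows of KLF7, KLF11 and KLF12 do not sit at the start of the listed gene. Counts over the 36 promoters include these and similar windows. Searched in the same way on both strands, the nuclear receptor half-site AGGTCA was present in 1 of the 36 promoters (2.78%) and in 13.9% of all promoters, the TEAD motif GGAATG in 2 (5.56%) and 14.0%, the ETS core CCGGAAG in 2 and 10.7%, the GATA motif AGATAA in 2 and 10.5%, the forkhead motif TGTTTAC in 1 and 3.41%, and the homeodomain core TAATTA in 0 and 4.98%. These are matches of letters, not sites of binding.

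All 8 tested KLF genes fell, with a median log2 fold change of -0.56 and a range from -0.96 to -0.21, and in each of them all GABA libraries lay below all control libraries. The same call was made in 51.2% of all tested genes, and all GABA libraries lay below all control libraries in 46.7%. KLF3 (ENSG00000109787, chromosome 4, 38664196 to 38701042 on hg38), a repressor that recruits CtBP, had 70.5, 73.6 and 70.7 CPM in GABA replicates 1, 2 and 3 and 121, 114 and 137 CPM in control replicates 1, 2 and 3. Its log2 fold change was -0.79 ± 0.09 (SE, edgeR adjusted p = 3.2e-05). The 3 GABA values lay close together, and the gap to the lowest control library was wider than the spread within either group.

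KLF10 and KLF11 are close relatives first described as TGF-beta-inducible early genes, and both repress transcription. KLF10 (chromosome 8) had 146, 153 and 149 CPM with GABA, against 226, 223 and 292 CPM in control cells, a log2 fold change of -0.72 ± 0.10 (adjusted p = 1.1e-04). Control replicate 3 was the highest library, and without it the fold change was -0.59 ± 0.06. KLF11 (chromosome 2) had 23.6, 25.5 and 30.4 CPM with GABA and 47.7, 58.0 and 49.5 CPM in control libraries, or 0.514 of the control level in the fit (-0.96 ± 0.12, adjusted p = 8.2e-05). It had the largest fall among the KLF genes, and 9.1% of its exon length overlaps another gene.

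The falls of the other KLF genes were smaller in CPM or in fold. KLF2, a factor known for quiescence in lymphocytes and endothelium, averaged 112 ± 1.69 CPM with GABA and 146 ± 4.30 CPM in control cells (SD, n = 3 each; -0.39 ± 0.07). KLF13, a regulator of cholesterol and cytokine genes, had 163, 166 and 151 CPM with GABA and 191, 228 and 183 CPM in control libraries (-0.33 ± 0.09, adjusted p = 0.0054). KLF12, a repressor of TFAP2A, fell by 0.35 on the log2 scale. KLF9, a glucocorticoid- and thyroid hormone-induced factor, was sparse at 3.52 ± 1.18 CPM with GABA and 6.38 ± 1.5 CPM in control cells and lost its call without GABA replicate 3 (adjusted p = 0.057). KLF7 had the smallest change, at -0.21 ± 0.08, and was not called with DESeq2 (adjusted p = 0.076) or without GABA replicates 2 or 3 (adjusted p = 0.084 and 0.056), so that 6 to 8 KLF genes passed with any library left out. Per kilobase of exon, the mean levels over all libraries ran from 63.8 CPM per kb for KLF2 and 49.5 for KLF10 down to 0.957 for KLF9.

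**Figure D2:**
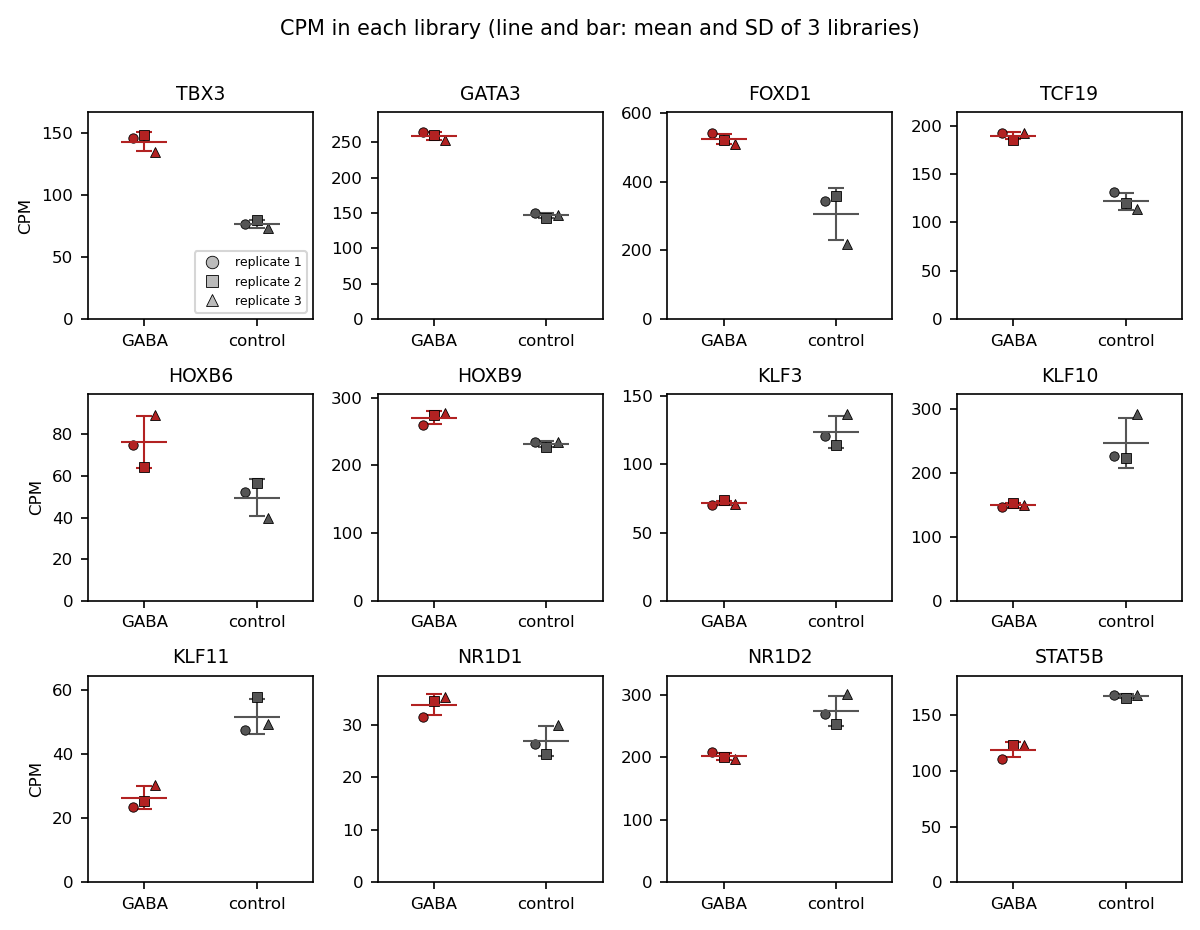
CPM of 12 members in each library, GABA left of control, with replicates 1, 2 and 3 as circle, square and triangle and the mean and SD as lines. In all 12 panels, of chosen members, the groups do not overlap, as in 92.5% of all tested genes. Control replicate 3 is the lowest control library for TBX3, FOXD1, TCF19 and HOXB6 and the highest one for KLF3, KLF10, NR1D1 and NR1D2.

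The HOXB genes moved the other way. All 5 tested members, HOXB3, HOXB6, HOXB7, HOXB9 and HOXB13, rose. Their median was 0.33 in log2 fold change, and 47.6% of all tested genes rose. They lie on the minus strand of chromosome 17, with HOXB13 set apart from the other genes, whose starts lie 95.6 to 124.3 kb downstream of its own. HOXB6 rose most, with 75, 64.5 and 89.5 CPM with GABA and 52.3, 56.6 and 39.6 CPM in control cells (0.63 ± 0.14, adjusted p = 0.0026). Without control replicate 3, the lowest library, its fold change was 0.49 ± 0.11.

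HOXB9, which had the highest level of the 5 (97.5 CPM per kb), gave 260, 274 and 278 CPM with GABA and 235, 227 and 234 CPM in control libraries (0.22 ± 0.06, adjusted p = 0.0071). HOXB7 had 134, 130 and 132 CPM with GABA and 107, 111 and 114 CPM in control libraries (0.26 ± 0.07, adjusted p = 0.0065). In both the groups stayed apart, as in 92.5% of all tested genes, and the changes were 1.17-fold for HOXB9 and 1.19-fold for HOXB7. HOXB3 had 83.2, 77.0 and 85.4 CPM with GABA and 65.9, 68.8 and 57.2 CPM in control libraries (0.36 ± 0.10, adjusted p = 0.0055).

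HOXB13, a posterior gene best known from prostate, averaged 41.9 ± 4.58 CPM with GABA and 33.4 ± 4.92 CPM in control cells, its groups overlapped, and its call (adjusted p = 0.028) was lost without GABA replicate 1 (adjusted p = 0.13), GABA replicate 3 (adjusted p = 0.054) or control replicate 2 (adjusted p = 0.085). Exons of HOXB6 and HOXB3 overlap other genes over 32.9% and 13.2% of their length, among them the antisense gene HOXB-AS3, and the sources used here do not say whether counting used the strand. HOXB-AS3 itself had 317, 306 and 380 counts with GABA and 206, 250 and 109 counts in control libraries (log2 fold change 0.81), so part of the reads of these genes cannot be told apart.

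Both listed HOXA genes are from the posterior end of their cluster, and both had lower values at low counts. HOXA11 had 12.2, 7.62 and 9.21 CPM with GABA and 12.6, 14.0 and 14.2 CPM in control cells (-0.49 ± 0.19, adjusted p = 0.025), and 31.1% of its exon length overlaps the antisense gene HOXA11-AS. HOXA13 had 2.70, 2.33 and 5.55 CPM with GABA and 6.55, 4.79 and 7.0 CPM in control cells, with overlapping groups (-0.78 ± 0.31, adjusted p = 0.030). Neither call held without GABA replicate 2, where the adjusted p-values were 0.11 for HOXA11 and 0.12 for HOXA13. HOXA11 also lost its call without GABA replicate 3 and in DESeq2 (adjusted p = 0.074 and 0.055), and HOXA13 without GABA replicate 1 or control replicate 1 (adjusted p = 0.11 and 0.074).

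The clearest single rises, those with the smallest p-values among the 52, were in the GATA and T-box families. GATA3 (ENSG00000107485, chromosome 10, 8045378 to 8075203), a factor of T cells, mammary luminal cells and urothelium, had 264, 260 and 253 CPM with GABA and 150, 143 and 147 CPM in control libraries. This was 1.77-fold (log2 fold change 0.82 ± 0.06, adjusted p = 2.5e-06), and the lowest GABA library lay far above the highest control library. GATA6, an endoderm and early liver factor, went the other way at very low counts, with 7, 8 and 5 counts in the GABA libraries and 22, 14 and 22 in the control libraries (-1.53 ± 0.37, adjusted p = 0.0033), and 14.2% of its exons overlap other genes.

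TBX3 (ENSG00000135111, chromosome 12, 114670254 to 114684164), a T-box repressor needed for liver bud growth in mouse, had 146, 149 and 135 CPM with GABA and 76.6, 79.6 and 73.6 CPM in control cells. It was 1.87-fold higher (0.90 ± 0.08, adjusted p = 5.4e-06), and its fold change ran from 0.87 to 0.95 over the alternatives tried. TBX6, a factor of paraxial mesoderm in mouse, had the largest fold among the members that rose, 1.22 ± 0.32 (adjusted p = 0.0049), on 25, 33 and 22 counts with GABA and 14, 11 and 9 counts in control libraries.

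**Figure D3:**
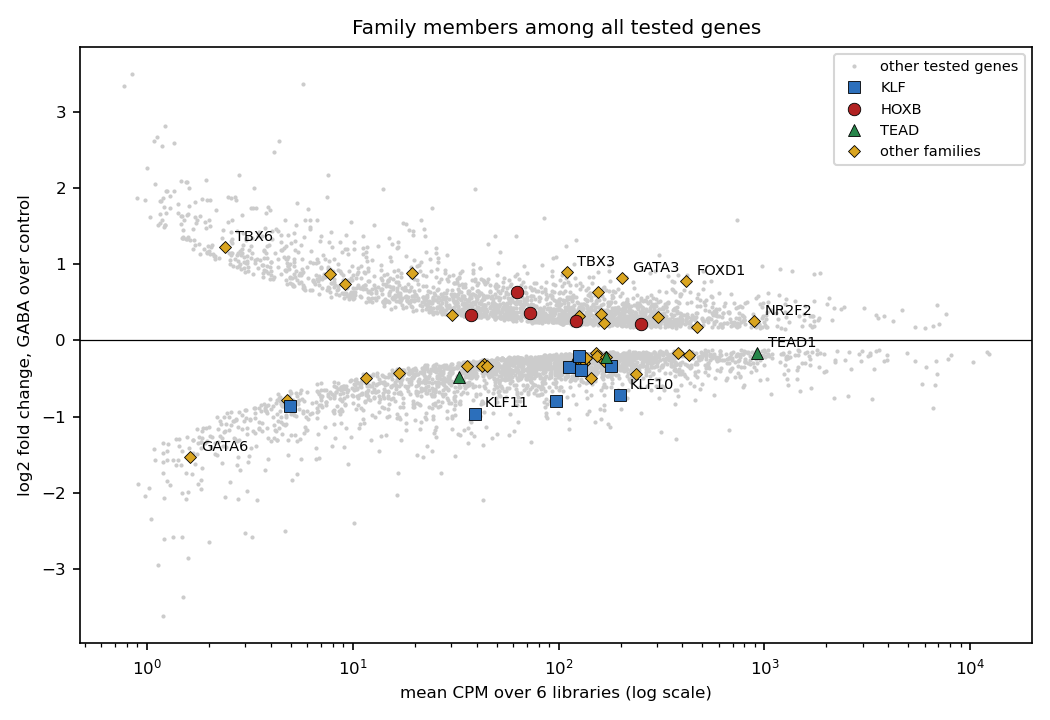
Log2 fold change of GABA over control (vertical axis) against the mean CPM over the 6 libraries (log axis) for all tested genes (grey) and the members (KLF as squares, HOXB as circles, TEAD as triangles, other families as diamonds). The empty band around 0 reflects the near absence of unchanged genes from the files, and the members with the largest folds, GATA6 and TBX6, lie at the lowest levels.

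Among the forkhead genes, 4 of 6 tested members rose and 2 fell, at a median log2 fold change of 0.33. FOXD1 (chromosome 5), a factor of kidney stroma and retina in mouse, was the most abundant of them at 159 CPM per kb and had 542, 523 and 512 CPM with GABA, against 344, 358 and 219 CPM in control cells (0.78 ± 0.14, adjusted p = 6.2e-04). Control replicate 3 was far below the other control libraries. Without it the log2 fold change was 0.58 ± 0.05 (adjusted p = 4.2e-11), smaller but with a smaller error. The antisense gene FOXD1-AS1 overlaps 16.2% of its exon length, and for FOXK2 other genes overlap 14.1%. FOXL1, known in mouse from gut mesenchyme and liver progenitors, had 22.6, 23.9 and 29.1 CPM with GABA and 13.2, 14.0 and 13.9 CPM in control libraries (0.88 ± 0.14, adjusted p = 3.2e-04).

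The paralogues FOXK1 and FOXK2, which act in insulin signalling and glycolysis, both rose. FOXK2 had 323, 354 and 336 CPM with GABA and 281, 287 and 248 CPM in control libraries (0.31 ± 0.07, adjusted p = 0.0029), and FOXK1 averaged 180 ± 6.89 CPM with GABA and 141 ± 15.3 CPM in control cells (0.35 ± 0.08). FOXP4 (-0.24 ± 0.09) and FOXJ2 (-0.16 ± 0.07) fell in edgeR but did not pass in DESeq2, with adjusted p-values of 0.066 and 0.16. FOXP4 passed with 1 library left out only without control replicate 3 (-0.34, adjusted p = 5.1e-05), and FOXJ2 lost its call without GABA replicate 2, GABA replicate 3 or control replicate 1, and with the replicate block (adjusted p = 0.059). FOXN4, a factor of the mouse retina, had 12, 7 and 9 counts with GABA and 1, 0 and 2 counts in control libraries and did not pass the filter. It was called higher in DESeq2 and in edgeR without that filter.

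The nuclear receptors listed are mostly orphan receptors, and 2 of 6 rose while 4 fell, at a median of -0.18 that equals that of all tested genes. NR2F2, which encodes COUP-TFII, a regulator of vein, lymphatic and metabolic genes, had the second highest CPM of all members, with 968, 937 and 991 CPM with GABA and 848, 795 and 798 CPM in control cells (0.25 ± 0.06, adjusted p = 0.0030). Its relative NR2F6 went the other way at -0.20 ± 0.08, with 146, 145 and 138 CPM with GABA and 168, 179 and 146 CPM in control libraries. That call (adjusted p = 0.031) was kept with 1 library left out only without control replicate 3 (adjusted p = 1.6e-04), and was lost in DESeq2 (adjusted p = 0.096).

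NR1D1 and NR1D2 encode REV-ERB alpha and beta, heme-binding repressors of the circadian clock, and their transcripts changed in opposite directions. NR1D2 had 208, 200 and 197 CPM with GABA and 269, 253 and 301 CPM in control cells (-0.44 ± 0.07, adjusted p = 4.5e-04). NR1D1, at a lower level per kilobase (11.0 against 40.9 CPM per kb), had 31.5, 34.6 and 35.3 CPM with GABA and 26.3, 24.5 and 30.0 CPM in control libraries (0.33 ± 0.12, adjusted p = 0.019). The groups did not overlap in either gene, as in 92.5% of all tested genes. The NR1D1 call was lost without GABA replicate 2 or 3 or control replicate 1 or 2 (adjusted p = 0.057 to 0.065), and 9.5% of its exon length overlaps other genes, including THRA.

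NR3C1, the glucocorticoid receptor, had 353, 367 and 353 CPM with GABA and 387, 396 and 417 CPM in control cells (-0.16 ± 0.06, adjusted p = 0.025). Its fold change was among the smallest of all members, and its call was lost in DESeq2 (adjusted p = 0.11), with the replicate block (adjusted p = 0.052) and without any 1 of the GABA libraries (adjusted p = 0.055 to 0.091). NR2C2, the testicular receptor TR4, fell by 0.23 ± 0.07 on the log2 scale, and without GABA replicate 1 its adjusted p was 0.052. Other genes overlap 11.4% of the exon length of NR2C2 and 8.3% of that of NR2F6.

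The STAT genes split as well. STAT5B, which carries growth hormone signals in liver, had 111, 123 and 123 CPM with GABA and 168, 165 and 168 CPM in control cells, a fall of 0.49 ± 0.07 on the log2 scale (adjusted p = 2.1e-04). STAT3, the mediator of interleukin-6 signals, had 505, 498 and 500 CPM with GABA and 445, 453 and 426 CPM in control libraries (0.18 ± 0.06, adjusted p = 0.013). Both genes had tight groups that stayed apart, as the groups did in 92.5% of all tested genes. STAT6, the mediator of interleukin-4 signals, had 402, 392 and 412 CPM with GABA and 480, 511 and 388 CPM in control cells, with overlapping groups (-0.19 ± 0.09, adjusted p = 0.052). It passed without control replicate 3, at -0.30 and an adjusted p of 4.9e-06.

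TEAD1, TEAD3 and TEAD4 each had lower values, at a median of -0.22, near the -0.18 of all tested genes. All GABA libraries lay below all control libraries in each, as in 46.7% of all tested genes. TEAD1, the most abundant member in CPM, had 867, 868 and 875 CPM with GABA and 969, 952 and 1014 CPM in control cells (-0.17 ± 0.06, adjusted p = 0.014). TEAD4 had 153, 159 and 161 CPM with GABA and 196, 193 and 162 CPM in control cells (-0.22 ± 0.08, adjusted p = 0.022). These 2 changes were small, and neither call held in DESeq2 (adjusted p = 0.062 for TEAD1 and 0.064 for TEAD4) or without GABA replicate 1 or 2, where TEAD3 was the 1 TEAD gene that passed. TEAD4 also lost its call without control replicate 1 (adjusted p = 0.094) or control replicate 2 (adjusted p = 0.051). TEAD3 had 27.6, 24.8 and 29.7 CPM with GABA and 38.6, 41.6 and 34.5 CPM in control cells (-0.48 ± 0.12, adjusted p = 0.0036).

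The 4 ETS factors by these names fell to a similar degree, from -0.33 to -0.27. ETV5 had 118, 121 and 120 CPM with GABA and 148, 145 and 148 CPM in control libraries (-0.30 ± 0.07, adjusted p = 0.0024), and ETV4 had 150, 146 and 157 CPM with GABA and 191, 188 and 166 CPM in control libraries (-0.27 ± 0.08, adjusted p = 0.0072). Both belong to the PEA3 group, whose transcription follows FGF and ERK signalling. ELF1 (-0.31) and ELF2 (-0.33), both lymphoid and endothelial regulators, fell at group means of 31.9 to 48.0 CPM. Without GABA replicate 1 neither passed (adjusted p = 0.054 for ELF1 and 0.071 for ELF2), ELF2 was also lost without GABA replicate 2 (adjusted p = 0.057), and ELF1 without GABA replicate 3 or control replicate 1 (adjusted p = 0.073 and 0.064).

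The genes with a TCF symbol do not share a function. TCF19, a nuclear protein of the G1/S phase, had 192, 185 and 192 CPM with GABA and 131, 120 and 114 CPM in control cells (0.64 ± 0.07, adjusted p = 3.7e-05), and TCF25, a ribosome quality control protein, had 172, 175 and 192 CPM with GABA and 153, 163 and 144 CPM in control libraries (0.23 ± 0.08, adjusted p = 0.014, or 0.077 without GABA replicate 3). Other genes overlap 7.0% of the exon length of TCF19 and 8.9% of that of TCF25. TCF7L2, the Wnt effector, fell by 0.33 ± 0.13 on the log2 scale, and its adjusted p was 0.086 without control replicate 3, its highest library, 0.087 without GABA replicate 2 and 0.073 without GABA replicate 3. TCF3, which encodes the E proteins E12 and E47, had 156, 155 and 163 CPM with GABA and 202, 192 and 159 CPM in control cells (-0.22 ± 0.09, adjusted p = 0.028). It kept its call with 1 library left out only without control replicate 3 (-0.32), and lost it in DESeq2 (adjusted p = 0.070).

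Of the remaining developmental factors, PAX2 and LHX5 rose and SIX4, SOX7 and SOX12 fell. PAX2, a kidney factor, had 10.4, 9.30 and 10.5 CPM with GABA and 5.83, 6.47 and 4.20 CPM in control cells (0.87 ± 0.20, adjusted p = 0.0029), and LHX5, a LIM-homeodomain factor of the mouse forebrain, had 10.9, 12.0 and 11.4 CPM with GABA and 5.71, 9.06 and 5.85 CPM in control cells (0.74 ± 0.21, adjusted p = 0.0067). In both, all GABA libraries lay above all control libraries, as in 45.8% of all tested genes, at low levels throughout.

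SIX4, a myogenic homeodomain factor, had 40.1, 36.2 and 37.1 CPM with GABA and 50.3, 48.3 and 44.5 CPM in control cells (-0.34 ± 0.10, adjusted p = 0.0089). SOX12, a SOXC factor, had 113, 108 and 109 CPM with GABA and 142, 166 and 115 CPM in control cells (-0.36 ± 0.11, adjusted p = 0.010), and without control replicate 3, the lowest control library, the change was -0.49. SOX7, an endothelial factor, fell by 0.43 ± 0.15 on the log2 scale at 14.3 ± 1.05 CPM with GABA and 19.4 ± 2.42 CPM in control cells. PINX1 overlaps 39.4% of its exon length, and its adjusted p was 0.059 without GABA replicate 1. The PAX-named repair and binding proteins moved apart, with PAXX at 0.32 ± 0.08 (146, 137 and 138 CPM with GABA and 104, 117 and 115 CPM in control libraries) and PAXBP1 at -0.33 ± 0.08 (106, 99.2 and 105 CPM with GABA and 127, 124 and 139 CPM in control libraries).

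Partners and pathway genes of these families were read from 13 lists, described by counts alone. In the JAK-STAT list, 13 of 33 genes are listed in the files, of which 11 fell and 2 rose (median -0.33, against -0.18 over all tested genes). Beside this and each family or list count, 47.6% of all tested genes rose and 51.2% fell. The receptors for leptin (LEPR, -2.39 ± 0.20, 3.25 ± 0.380 CPM with GABA and 17.1 ± 2.49 CPM in control cells), interleukin-6 (IL6R, -0.87 ± 0.12) and interleukin-13 (IL13RA1, -0.64 ± 0.07) fell, as did the inhibitor SOCS6 (-0.45 ± 0.09) and JAK1, and SOCS2 (0.39) and SOCS5 (0.27, adjusted p = 0.066 without GABA replicate 2) rose. Without GABA replicate 1 or 3, 7 of these genes fell.

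The Hippo list was mixed, with 7 of 13 genes higher and 6 lower at a median of 0.17. The lower count was 2 without GABA replicate 1 and 3 without GABA replicate 3 or with DESeq2 size factors. It was 4 without GABA replicate 2, control replicate 1 or control replicate 3. The higher count was 5 without GABA replicate 1 or 2, where CCN2 and WWC1 were not called. It was 6 without control replicate 2, where CCN2 was not called. VGLL3, a TEAD cofactor, rose by 0.61 ± 0.06 to 830 ± 26.7 CPM with GABA, against 542 ± 11.6 CPM in control cells, and the upstream inhibitors NF2 (0.92 ± 0.09) and LATS2 (0.83 ± 0.10) and the YAP target ANKRD1 (0.44 ± 0.06) also rose. Other genes on the side of the inhibitory kinases fell, namely the kinase activator MOB1B (-0.36, adjusted p = 0.0035), its paralogue MOB1A (-0.26), the kinase gene STK3 (-0.30) and LATS1 (-0.18). AJUBA, a LIM protein that binds LATS kinases and is not counted with that side here, was also lower (-0.39, adjusted p = 4.8e-04). MOB1A was not called without GABA replicate 1 or 2 (adjusted p = 0.065 and 0.071), STK3 without GABA replicate 1, GABA replicate 3 or control replicate 3 (adjusted p = 0.084 to 0.089, at -0.13 without control replicate 3), and LATS1 in DESeq2 (adjusted p = 0.14), with the replicate block (adjusted p = 0.053) or without any 1 library but control replicate 2 (adjusted p = 0.052 to 0.13). WWTR1, which encodes TAZ, fell by 0.21, but did not pass in DESeq2 (adjusted p = 0.079) or without GABA replicate 1, GABA replicate 3 or control replicate 1 (adjusted p = 0.063 to 0.086). Of the 6 TCF partners and Wnt feedback genes, 2 rose and 4 fell at a median of -0.40 (2 lower without control replicate 1), with the Wnt inhibitor DKK1 at 0.56 ± 0.06, the corepressor TLE1 at -0.37, the ubiquitin ligase ZNRF3 at -0.47 and the scaffold APC at 0.29.

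Among the nuclear receptors without an NR symbol, the vitamin D receptor VDR (-0.71 ± 0.08) and HNF4G (-0.68 ± 0.18) fell. The coregulators of nuclear receptors were mixed, with 6 of 9 higher and 3 lower at a median of 0.18 (4 higher without GABA replicate 2, 3 higher and 2 lower without GABA replicate 3). NCOA3, a steroid receptor coactivator, fell by 0.45 ± 0.06, NCOA7 fell by 0.43, and the Mediator subunit MED1 (0.31) and BRD8 (0.32) rose. In the retinoic acid list 4 of 5 genes rose and 1 fell, at a median of 0.40; the RAR and RXR genes themselves are not listed. The retinoic acid hydroxylase CYP26B1 rose by 2.61 ± 0.36 at low counts, the synthetic enzyme ALDH1A3 by 0.60 ± 0.11 and the transglutaminase TGM2 by 0.40 ± 0.08. DHRS3, which reduces retinal, fell by 0.60. Other genes, among them the antisense gene ALDH1A3-AS1, overlap 28.6% of the exon length of ALDH1A3.

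**Figure D4:**
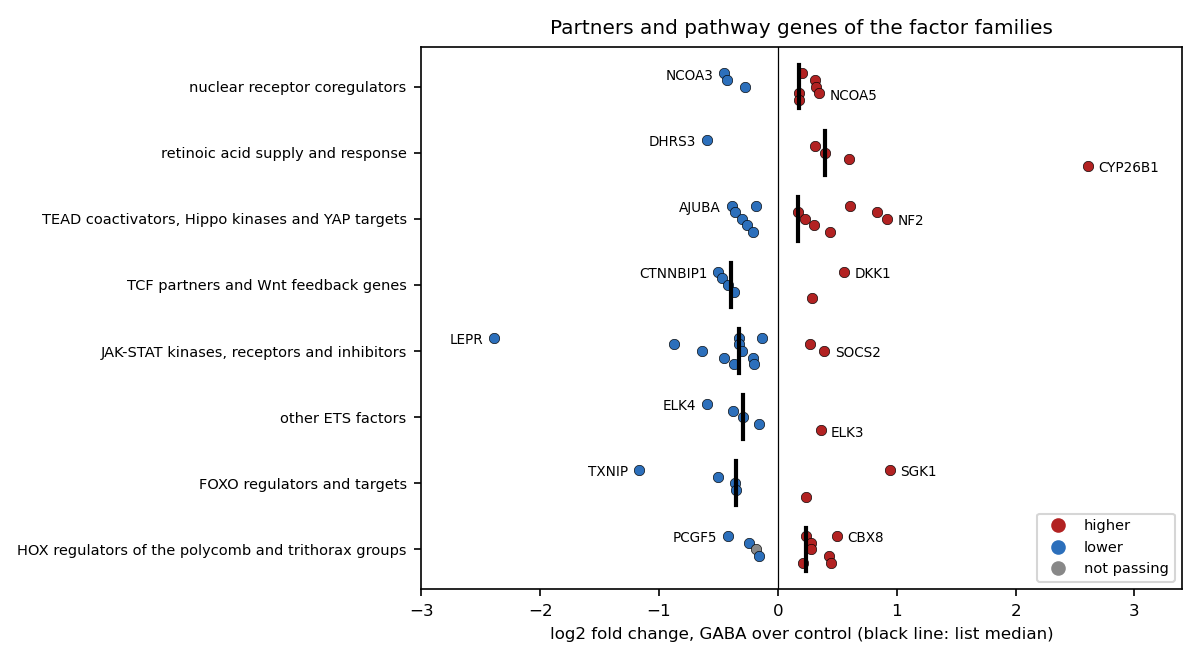
Log2 fold change of GABA over control for each tested gene of the 8 partner and pathway lists with 5 or more tested genes; colour shows the call, the black line the list's median, and the lowest and highest gene are named. The JAK-STAT list lies mostly left of 0, down to LEPR at -2.39, and the polycomb and trithorax list mostly right of it.

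Of the polycomb and trithorax regulators of HOX genes, 7 of 11 tested genes rose, 3 fell and BMI1 did not pass, at a median of 0.24. The lower count was 1 with DESeq2 or its size factors, without any 1 GABA library or without control replicate 1. The higher count was 6 without GABA replicate 1 or control replicate 1 and 5 without GABA replicate 3. The genes that lost the call there were KMT2B and ASH1L. The histone H3 lysine 4 methyltransferases KMT2A (0.24), KMT2B (0.28), KMT2C (0.43 ± 0.07) and KMT2D (0.45 ± 0.14) were among those that rose. KMT2B had an adjusted p of 0.074 without GABA replicate 1 and 0.060 without GABA replicate 3. Other genes overlap 18.9% of the exon length of KMT2A. KMT2D had 892, 860 and 936 CPM with GABA and 682, 811 and 481 CPM in control libraries, with control replicate 3 the lowest. The methyltransferase EZH1 (0.28 ± 0.07) and the polycomb reader CBX8 (0.50 ± 0.14) also rose. PCGF5, a subunit of a polycomb complex, fell by 0.42 ± 0.08. The 2 listed HOX cofactor relatives, TGIF1 (-0.50 ± 0.07) and TGIF2 (-0.24), fell, and TGIF2 was not called in DESeq2 or without GABA replicate 2, GABA replicate 3 or control replicate 1. SP1, the 1 SP factor listed, fell by 0.33 ± 0.06, in the same direction as the related KLF genes.

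Of the other ETS factors 4 of 5 fell, at a list median of -0.29, and ELK3 rose by 0.36 ± 0.08 (2 lower with DESeq2 or without any 1 GABA library), with ELK4, a serum response cofactor, at -0.60 ± 0.07, GABPA at -0.38 and ETS1 at -0.16 (adjusted p = 0.059 to 0.073 without any 1 GABA library and 0.090 in DESeq2). Of 6 FOXO regulators and targets 2 rose and 4 fell, at a median of -0.36 (1 higher without GABA replicate 1 or 2, or control replicate 1 or 3), led by SGK1, a kinase that phosphorylates FOXO proteins, at 0.94 ± 0.06, TXNIP at -1.17 ± 0.08, TRIB3 at -0.35 and CCNG2 at -0.50. The LIM partners LMO4 (-0.71 ± 0.11) and LDB1 (-0.34 ± 0.08) fell, and LMO2 rose at 2.24 CPM. EYA4, the 1 EYA or DACH gene listed, fell by 0.25 and was not called without GABA replicate 1, GABA replicate 2 or control replicate 1, or in DESeq2.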

How the data were processed

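The deposited values are raw counts per gene, 1 file per library, with Ensembl identifiers. Per the submitters' processing notes, CASAVA 1.8, Bowtie 0.12.2 and the hg38 build were used; the counting program, annotation and strand setting are not given in the sources used here. Symbols came from a gene name table (5173 genes) or GENCODE release 29 (14), which also gave gene types, positions and exon overlaps. Counts of all 6 libraries were fitted with edgeR 4.0.16 in R 4.3.3: filterByExpr (minimum count 10, minimum total count 15; 4981 genes kept, 206 removed), TMM, robust quasi-likelihood F test, and Benjamini-Hochberg adjustment over all tested genes. DESeq2 1.42.0, limma 3.58.1 (voom), other scalings and filters, a replicate block and each library left out were alternatives. Members, gene lists and tests were chosen with earlier results of these data known. Full values were given for the 2 most abundant members and the 2 with the smallest p in each family, and for some others chosen after their values were seen; pathway lists name up to 4 genes by p, and others chosen likewise. Nothing states that same-numbered cultures were handled together, and no list test was run. 1 gene of a pathway list is not reported here. Python 3.11.15, pandas 2.3.3 and matplotlib 3.10.9 made tables and figures.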

Additional observations from a re-analysis of the deposited data

How the results depend on the processing

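Over 15 alternatives the 52 members gave 780 fold changes. No fold change reversed its sign, 703 stayed on their side of the threshold, 74 lost the call and 3, all of STAT6, gained it. Every scaling, library totals included, was computed on the listed genes alone, nearly all of which differ. Agreement among the scalings therefore cannot show where no change lies, which matters most for the sign of small fold changes. In 32 members the call never changed. Of the 19 that lost it in some setting, each lost it with at least 1 library left out. The count of higher members ran from 17 to 20 with a library left out, and the count of lower members from 19 to 31. Over all tested genes these counts ran from 2081 to 2336 higher and from 1937 to 2399 lower. With a minimum absolute log2 fold change of 0.5, 9 members were higher and 6 lower, by its construction. Of the 4981 tested genes, 1821 reached 0.5 in absolute value. DESeq2, run without the edgeR filter on low counts, gave 21 higher members, FOXN4 among them, and 22 lower members. The DESeq2 size factors in edgeR, which shift the median log2 fold change by 0.04, gave 20 and 23. With the replicate block, 20 members were higher and 29 lower, NR3C1 and FOXJ2 having lost the call. Over all tested genes, 2369 were higher and 2549 lower in the main fit, against 2485 and 2048 in DESeq2. These counts were 2373 and 2050 with the DESeq2 size factors and 2371 and 2452 with the replicate block. Deviations of same-numbered libraries from their group means had correlations of 0.00033, -0.089 and -0.036, so the numbers were not taken as pairs. Genes listed at few counts, such as GATA6, TBX6, HOXA13, KLF9 and FOXN4, are limited by counting error, and genes that did not respond are nearly absent from the files.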
